A study of Homo sapiens with 6 samples.

Results

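The genes that flank ERBB2 on the long arm of chromosome 17, in the band 17q12, were followed in RNA from the human gastric cancer line NCI-N87. The 10 neighbours were taken by gene name from the deposited tables and placed in order of their lowest coordinate: MED1, CDK12, PPP1R1B, STARD3, TCAP, PNMT, PGAP3, ERBB2 itself as the reference point, MIEN1, GRB7 and IKZF3. Distances in kb from ERBB2 use the same coordinate, which for genes on the minus strand is the 3' end. All 10 neighbours were found among the 58735 genes of the tables, and all 10 were among the 15726 genes with enough counts to be tested. NCI-N87 is an established line of gastric cancer cells, grown here in RPMI medium with fetal bovine serum. In 3 libraries the cells carried PLVX-IRES-Puro-EGLN3, a plasmid for overexpression of the prolyl hydroxylase EGLN3, and in 3 control libraries they carried the empty plasmid. Every library came after 7 days of selection with puromycin, so the control cells had been under the drug as well. The plasmid was given for 1 day, or for 5 days by the label of EGLN3 replicate 3. Nothing in the labels ties the replicates to separate cultures, and p-values therefore speak only of how much these 6 libraries vary, which may be technical variation.

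In a share of gastric and breast cancers a stretch of 17q12 is present in many copies, and ERBB2, a receptor tyrosine kinase of the epidermal growth factor receptor family, is its best known gene. Neighbouring genes are copied with it, and those whose promoters are active in the tissue, such as GRB7, STARD3 and MIEN1, are commonly overexpressed together with ERBB2. NCI-N87 is a widely used model of ERBB2-amplified gastric cancer. The files measure RNA only, DNA copy number was not analysed here, and in bulk RNA fewer cells with a transcript and less of it per cell cannot be told apart.

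The RefSeq promoters of PGAP3 and ERBB2 lie back to back, and they are shown first because these genes differed in level although their annotated starts are so close. The windows run from 250 bases before to 50 bases after the gene start in RefSeq on GRCh38.p14, and 5 of the 10 neighbours and ERBB2 had an entry in that table. PGAP3 is read from the minus strand (chr17:39688008-39688307) and ERBB2 from the plus strand (chr17:39687844-39688143). Capitals mark the 136 bases that both windows hold, written on opposite strands, and the RefSeq starts lie 37 bases apart.
PGAP3: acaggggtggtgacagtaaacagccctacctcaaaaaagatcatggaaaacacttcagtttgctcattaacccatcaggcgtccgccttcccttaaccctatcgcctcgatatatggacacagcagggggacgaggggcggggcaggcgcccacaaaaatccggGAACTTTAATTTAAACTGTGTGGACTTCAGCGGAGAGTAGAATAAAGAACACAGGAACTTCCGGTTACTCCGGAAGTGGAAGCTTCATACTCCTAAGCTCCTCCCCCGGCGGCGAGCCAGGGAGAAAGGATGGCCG
ERBB2: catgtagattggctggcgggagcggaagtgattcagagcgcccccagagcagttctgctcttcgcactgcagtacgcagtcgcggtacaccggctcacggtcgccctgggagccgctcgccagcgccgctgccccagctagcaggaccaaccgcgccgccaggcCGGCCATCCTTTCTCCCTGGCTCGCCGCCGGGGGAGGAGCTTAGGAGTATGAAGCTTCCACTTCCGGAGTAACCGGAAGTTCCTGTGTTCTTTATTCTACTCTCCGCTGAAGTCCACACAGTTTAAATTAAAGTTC
Of 22 ERBB2 transcripts in GENCODE 29, 3 start within 1 kb of that RefSeq start and 19 start more than 5 kb downstream of it, and gene counts do not show which start was used.

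MIEN1 had the highest mean level of the 10 neighbours and CDK12 the lowest mean level of the 6 strongly expressed ones, and their promoters differ in base composition. In the MIEN1 window (chr17:39730483-39730782, minus strand) capitals mark only a GC box, GGGCGG. It stands on the opposite strand and therefore reads as its reverse complement. The E-box CACGTG of the MIEN1 window is left in lower case. None of the motifs searched was found in the CDK12 window (chr17:39461236-39461535, plus strand), which is in lower case throughout.
MIEN1: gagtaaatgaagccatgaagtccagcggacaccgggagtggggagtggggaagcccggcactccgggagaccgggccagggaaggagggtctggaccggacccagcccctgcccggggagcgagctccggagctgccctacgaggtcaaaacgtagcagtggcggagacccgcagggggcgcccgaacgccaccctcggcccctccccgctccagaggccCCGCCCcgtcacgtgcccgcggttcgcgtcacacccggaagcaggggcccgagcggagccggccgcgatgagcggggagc
CDK12: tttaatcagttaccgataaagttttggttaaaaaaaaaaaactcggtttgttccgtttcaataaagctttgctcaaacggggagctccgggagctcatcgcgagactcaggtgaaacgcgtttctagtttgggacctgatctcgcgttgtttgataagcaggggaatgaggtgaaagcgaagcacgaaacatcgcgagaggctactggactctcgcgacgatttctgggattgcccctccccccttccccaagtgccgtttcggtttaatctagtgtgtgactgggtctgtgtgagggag
The MIEN1 window had 73.0% G and C, STARD3 67.0%, ERBB2 60.7%, PGAP3 53.0%, MED1 52.0% and CDK12 49.0%, against a median of 58.7% over 35116 promoters. Searched on both strands, GGGCGG was found 2 times in STARD3 and 1 time each in PGAP3 and MIEN1, and 45.0% of all promoters hold it. The TFAP2 motif GCCNNNGGC occurred 1 time, in STARD3, against 23.2% of all promoters with it. The E-box CACGTG occurred 1 time, in MIEN1, against 7.26%, and TATAAA was in none of these windows, against 11.5%. A match or its absence describes the letters of the window and says nothing of binding.

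Facts of the whole series bear on the values as follows. Library totals ran from 15157265 to 16767383 counts. EGLN3 had 9 to 11 counts in the control libraries and 7298, 27674 and 27494 in EGLN3 replicates 1 to 3, as labelled. The main axis of variation between libraries (70.03% of the variance) did not follow the groups: EGLN3 replicate 1 and control replicate 3 lay at one end (59.36 and 34.44), and EGLN3 replicate 3 and control replicate 1 at the other (-45.87 and -36.18). All 6 epithelial markers (EPCAM, KRT8, KRT18, KRT19, CDH1, CLDN4) had a mean of at least 1 FPKM, with a summed level of 6760 to 9580 FPKM in controls and 5790 to 11500 in EGLN3 libraries. FPKM counts fragments per kilobase of exon after scaling to library size, so it allows genes of different length to be compared. The length is that of all annotated exons of a gene, not of the transcripts used, so such comparisons are approximate.

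Of the 10 neighbours, 6 were among the top 5% of the 19951 protein-coding genes by mean FPKM (39.6 or more): MIEN1, GRB7, STARD3, PGAP3, MED1 and CDK12. The first 3 of these were among the top 1% (154 FPKM or more), and TCAP was within the top 10% (21.8 or more). ERBB2, at 917 ± 68.9 FPKM (SD, n = 6), ranked 27 of all protein-coding genes and stood above each neighbour by its mean. PPP1R1B was close to the median of the 11503 protein-coding genes with at least 0.5 FPKM, which was 6.34, and PNMT and IKZF3 were below it. Among the 42 other protein-coding genes that start within 1 Mb of ERBB2, 15 (35.7%) were in the top 5%, 4 were in the top 1%, and the median was 18 FPKM. This window is therefore rich in expressed genes beyond the neighbours themselves. The plot of levels along the chromosome shows both sets.

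**Figure D1:**
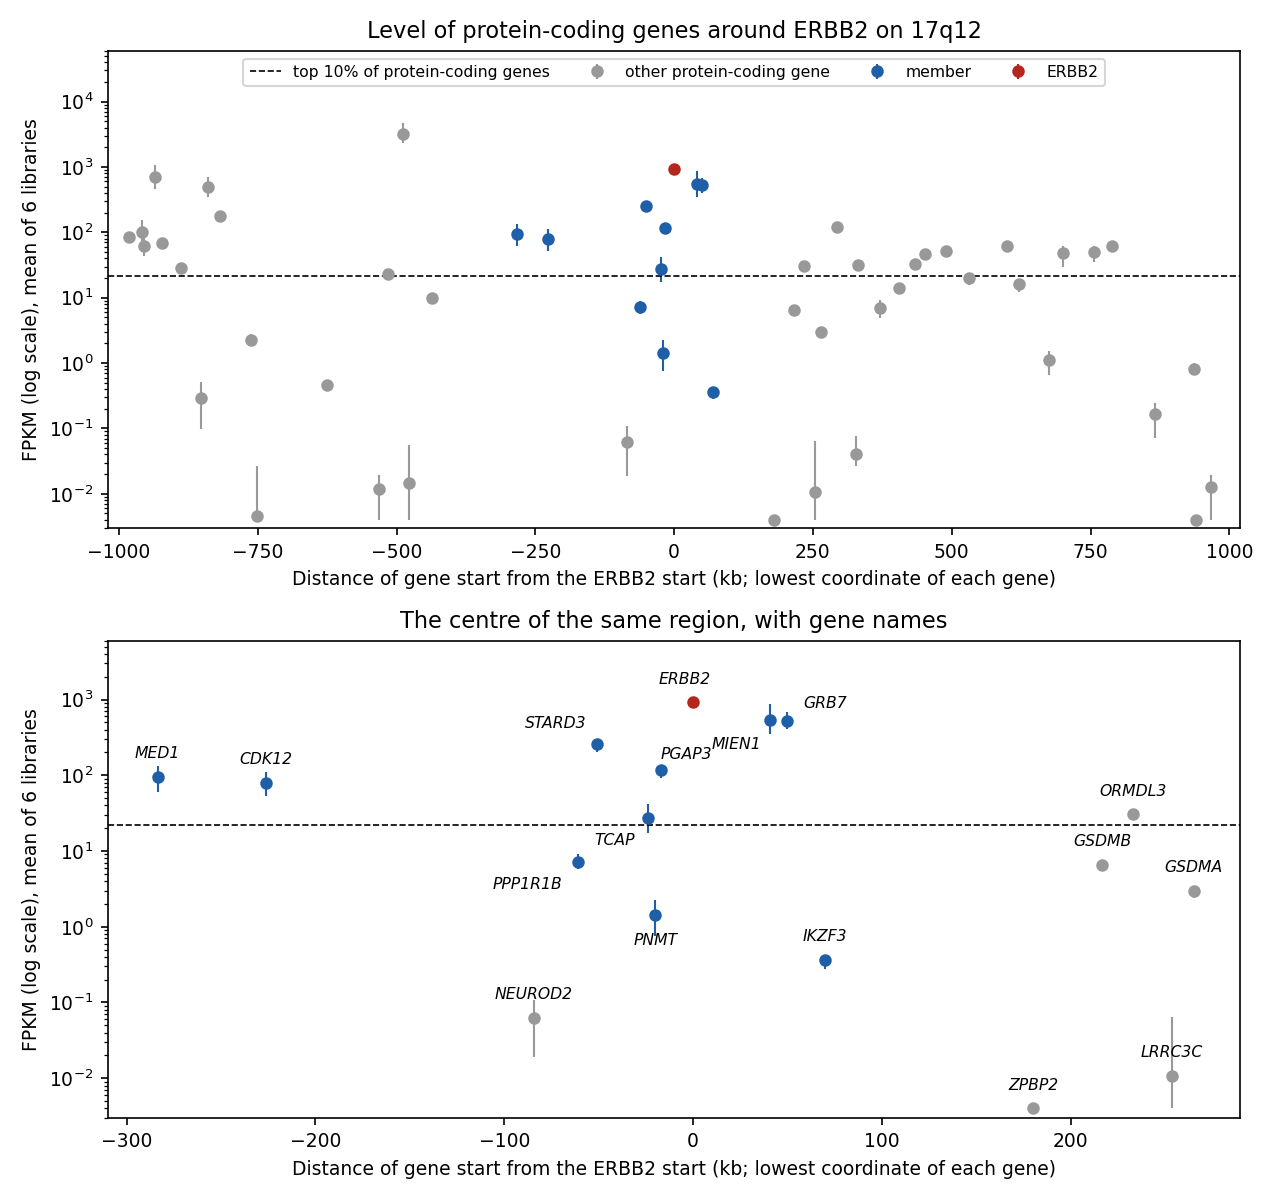
Mean FPKM over 6 libraries (log axis) of protein-coding genes against the distance of their lowest coordinate from that of ERBB2 in kb, with bars from the lowest to the highest library; the upper panel covers 1 Mb on each side, the lower panel the centre with gene names. Genes listed at 0 are drawn at the lower edge; ERBB2 (red), MIEN1, GRB7, STARD3 and PGAP3 form the high group within about 51 kb, with PNMT at 1.41 FPKM inside it and IKZF3 at 0.364 FPKM just beyond GRB7.

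GRB7 and MIEN1 lie on the far side of ERBB2 and were the highest of the neighbours. GRB7 (ENSG00000141738, plus strand, chr17:39737927-39747291) encodes an adaptor protein whose SH2 domain binds ERBB2. It stood at 447, 547 and 616 FPKM in control replicates 1 to 3 and at 675, 455 and 405 FPKM in EGLN3 replicates 1 to 3, a mean of 524 ± 106 (SD, n = 6) and rank 46. EGLN3 replicate 1 was the highest and EGLN3 replicate 3 the lowest, so the EGLN3 group held both extremes and the control values lay between them. MIEN1 (ENSG00000141741, minus strand, chr17:39728496-39730787) encodes a small membrane-associated protein linked to cell migration. It stood at 395, 536 and 680 FPKM in the controls and at 881, 420 and 346 FPKM in the EGLN3 libraries, a mean of 543 ± 205 and rank 44. The order of libraries was that of GRB7 with a wider spread, and MIEN1 exceeded GRB7 in 2 of 6 libraries, so these 2 neighbours could not be ranked.

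MIEN1 overlaps the end of ERBB2 on the opposite strand, and 571 exonic bases are shared, which is 24.9% of MIEN1 and 5.53% of ERBB2. Whether the counting used strand is not stated in the sources at hand, so reads of ERBB2 and MIEN1 in the shared bases cannot be told apart. ERBB2 (ENSG00000141736, plus strand, chr17:39687914-39730426) stood at 990, 999 and 894 FPKM in the controls and at 815, 907 and 894 FPKM in the EGLN3 libraries. It was lowest in EGLN3 replicate 1, where MIEN1 was highest, and in that library MIEN1 (881) stood above ERBB2 (815). In the other 5 libraries ERBB2 was the higher of the pair.

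STARD3 and PGAP3 act on membrane lipids. STARD3 (ENSG00000131748, plus strand, chr17:39637065-39663484) encodes a sterol-binding protein of late endosomes. It stood at 234, 283 and 291 FPKM in the controls and at 294, 226 and 205 FPKM in the EGLN3 libraries, a mean of 256 ± 38.4 (SD, n = 6) and rank 110. PGAP3 (ENSG00000161395, minus strand, chr17:39671122-39696797) remodels the lipid part of GPI anchors. It stood at 113, 132 and 136 FPKM in the controls and at 130.0, 104 and 93.1 FPKM in the EGLN3 libraries, a mean of 118 ± 17.5 and rank 258. Both were lowest in EGLN3 replicate 3, and for both the groups overlapped. The spans of PGAP3 and ERBB2 overlap on opposite strands, with 194 exonic bases in common (5.29% of PGAP3, 1.88% of ERBB2). ERBB2 stood 7.76-fold above PGAP3 by mean FPKM.

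MED1 and CDK12 take part in transcription and lie farther out, with lowest coordinates at -283.6 and -226.4 kb relative to that of ERBB2. MED1 (ENSG00000125686, minus strand, chr17:39404285-39451286) encodes the Mediator subunit that contacts nuclear receptors. It stood at 124, 72.3 and 65.0 FPKM in the controls and at 60.9, 109 and 134 FPKM in the EGLN3 libraries, a mean of 94.4 ± 32.2 (SD, n = 6) and rank 347. CDK12 (ENSG00000167258, plus strand, chr17:39461511-39564907) encodes a kinase that, with cyclin K, phosphorylates the tail of RNA polymerase II. It stood at 103, 64.8 and 55.8 FPKM in the controls and at 52.7, 90.9 and 111 FPKM in the EGLN3 libraries, a mean of 79.6 ± 25.1 and rank 433. Both were highest in EGLN3 replicate 3 and lowest in EGLN3 replicate 1, the reverse of GRB7 and MIEN1, and the groups overlapped. MED1 was above CDK12 in 6 of 6 libraries, while PGAP3 was above MED1 in 3 of 6.

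The 4 remaining neighbours are known for other tissues. TCAP (ENSG00000173991, plus strand, chr17:39664187-39666555) encodes telethonin, which caps titin in the sarcomere of striated muscle. It stood at 21.5, 29.7 and 35.4 FPKM in the controls and at 41.3, 21.2 and 17.4 FPKM in the EGLN3 libraries, with the extremes again in EGLN3 replicates 1 and 3. None of 6 muscle markers reached a mean of 1 FPKM and MYH2 was listed at 0 in all libraries, with summed marker levels of 0.49 to 1.19 FPKM in controls and 0.723 to 1.58 in EGLN3 libraries. PPP1R1B (ENSG00000131771, plus strand, chr17:39626740-39636626) encodes DARPP-32, an inhibitor of protein phosphatase 1 best known from neurons of the striatum. It stood at 6.35, 8.18 and 8.15 FPKM in the controls and at 9.0, 5.93 and 5.73 FPKM in the EGLN3 libraries, so the EGLN3 group spanned the controls. None of 5 striatal markers reached 1 FPKM, and their sums were 0.153 to 0.248 FPKM in controls and 0.143 to 0.344 in EGLN3 libraries, the order also used for the sums that follow.

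PNMT and IKZF3 were the lowest of the 10. PNMT (ENSG00000141744, plus strand, chr17:39667981-39670475) encodes the enzyme that makes adrenaline from noradrenaline. It had 31, 32 and 45 counts in the controls and 50, 23 and 18 counts in the EGLN3 libraries, or 0.759 to 2.25 FPKM, and ranked 10017. EGLN3 replicates 1 and 3 were again its extremes, although counts this low carry much counting error. No marker of 5 for adrenal chromaffin cells reached 1 FPKM, SLC18A1 was at 0, and the sums were 0.183 to 0.266 and 0.223 to 0.272 FPKM. IKZF3 (ENSG00000161405, minus strand, chr17:39757715-39864188) encodes Aiolos, a zinc finger factor of lymphocytes. It had 49, 64 and 51 counts in the controls and 59, 72 and 61 counts in the EGLN3 libraries, or 0.28 to 0.423 FPKM, and ranked 11872. The groups overlapped, none of 6 lymphocyte markers reached 1 FPKM, MS4A1 was at 0, and their sums were 1.17 to 2.4 and 1.12 to 2.38 FPKM. Of 4 markers of fibroblasts and endothelium, none reached 1 FPKM and COL1A2 was at 0, with sums of 0.569 to 0.599 and 0.432 to 0.488 FPKM.

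The end of the high level was sharp beyond GRB7 and less so on the other side. To place it, protein-coding genes were followed outward from ERBB2 until 2 in a row fell below the top 10% by FPKM. The stretch so found ran from STARD3 to GRB7, chr17:39637065-39747291, or 110.2 kb. Beyond GRB7 the next gene is IKZF3, whose nearer end lies after a gap of 10423 bases. IKZF3 is on the minus strand, so this is its 3' end and its transcription start lies farther out. The mean FPKM of IKZF3 was 1440-fold lower than that of GRB7. ZPBP2 followed, listed at 0 in all libraries, and then GSDMB at 6.52 FPKM. ORMDL3 (30.5 FPKM) and PSMD3 (122 FPKM) came farther on, so genes above the top 10% line return within 1 Mb on that side. The end at GRB7 was the same under all 7 settings tried.

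On the side of MED1 the level alternated between neighbours. PGAP3 at 118 FPKM was followed by PNMT at 1.41, an 83.6-fold step across 646 bases, then by TCAP at 27.7, STARD3 at 256 and PPP1R1B at 7.23 FPKM. STARD3 and PPP1R1B differ 35.4-fold although only 438 bases separate them. Next came NEUROD2, a neuronal transcription factor at 0.0624 FPKM, and then CDK12 and MED1, so both transcription genes lay outside the stretch although both ranked in the top 5%. Beyond MED1, FBXL20 stood at 9.92 FPKM, 9.51-fold lower than MED1 across 1761 bases. This end depended on the rule. It moved to PGAP3, at -16.79 kb from the ERBB2 start and with a stretch of 76.17 kb, when 1 low gene ended it or the top 5% was used. It moved to CACNB1, at -514.5 kb and with a stretch of 573.8 kb, when 3 low genes were required.

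Between libraries the neighbours did not move as 1 block. After scaling by TMM, which corrects for composition, each value was set against the gene's own mean of the 6 libraries in log2 CPM. Of the 10 neighbours, 6 (PPP1R1B, STARD3, TCAP, PNMT, MIEN1 and GRB7) were highest in EGLN3 replicate 1 and lowest in EGLN3 replicate 3, a pattern held by 16.9% of all tested genes. MED1 and CDK12 had the reverse pattern, which 15.7% of tested genes had. PGAP3 was lowest in EGLN3 replicate 3 and highest in control replicate 3, and IKZF3 was highest in EGLN3 replicate 2. The plot of movement by library shows the opposed patterns in both groups. The split of MED1 and CDK12 from the rest was made after the values had been seen.

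**Figure D2:**
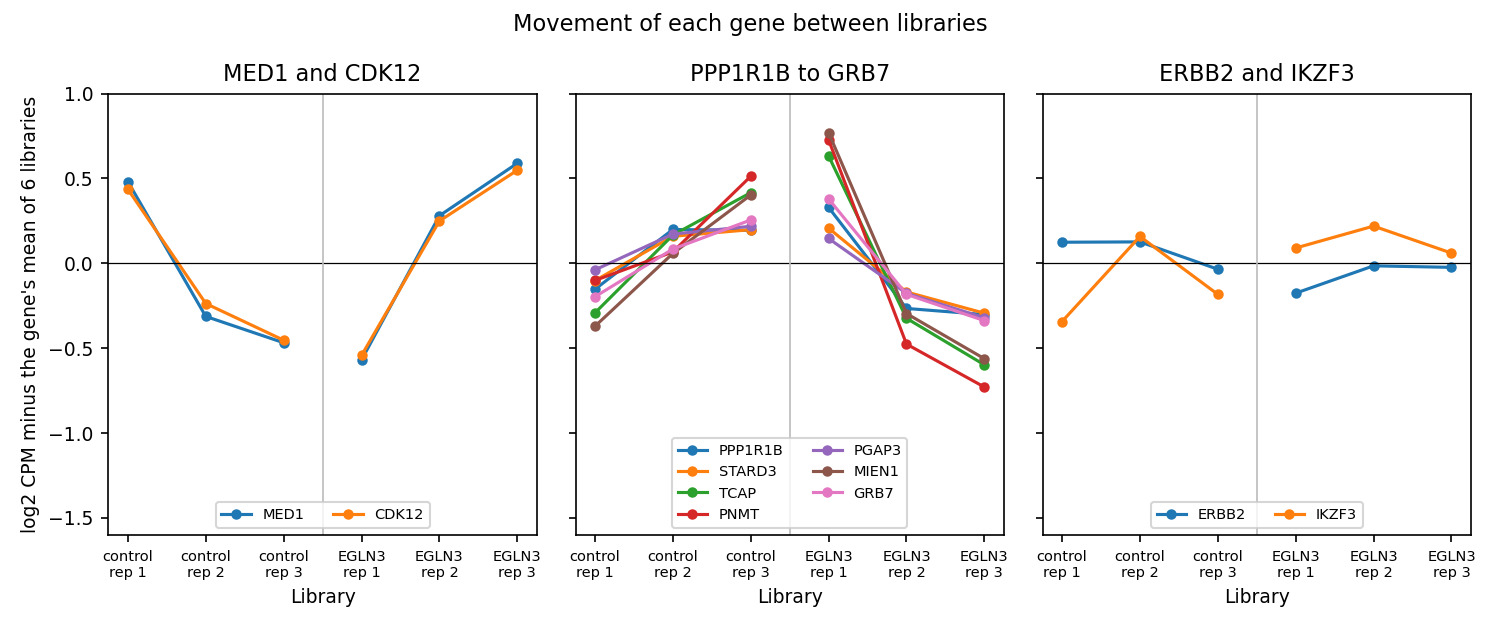
log2 CPM of each gene minus its mean of 6 libraries, by library, for MED1 and CDK12 (left), the 7 genes from PPP1R1B to GRB7 without ERBB2 (middle), and ERBB2 and IKZF3 (right); lines only tie the points of a gene, since replicates have no order. MED1 lies at -0.57 and 0.59 in EGLN3 replicates 1 and 3, where MIEN1 lies at 0.77 and -0.56, while ERBB2 stays between -0.18 and 0.13.

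The size of the movement differed by gene. Within the EGLN3 group, MIEN1 was 2.52-fold higher in replicate 1 than in replicate 3 (2028 and 806.2 CPM), TCAP 2.35-fold, PNMT 2.93-fold and GRB7 1.64-fold. STARD3 was 1.42-fold and PGAP3 1.38-fold higher there. MED1 was 2.23-fold and CDK12 2.13-fold lower in replicate 1 than in replicate 3. The controls showed the same opposition with smaller steps: in replicate 3 against replicate 1, MIEN1 was 1.71-fold and GRB7 1.37-fold higher, while MED1 was 1.93-fold and CDK12 1.85-fold lower. ERBB2 had a standard deviation (SD) of 0.11 in log2 CPM, smaller than that of all but 10.2% of tested genes. MED1 and MIEN1 each had an SD of 0.51, larger than that of 83.4% of tested genes.

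Some pairs held a nearly fixed ratio whatever the library. The SD of the log2 ratio of 2 genes over the 6 libraries is small when they move together. Most pairs named here were picked for their small SD, so their place among pairs that were not picked is a description only. For STARD3 and PGAP3 it was 0.042, with a CPM ratio between 2.92 and 3.18, the smallest SD of any pair of neighbours. These genes are not adjacent, and 0.157% of 12763 pairs of neighbouring tested protein-coding genes were steadier. For MED1 and CDK12 it was 0.048, with a ratio between 0.64 and 0.697, and 0.243% of neighbouring pairs were steadier. PPP1R1B and STARD3 (0.076) and TCAP and MIEN1 (0.088) were also below the lower quartile of neighbouring pairs, 0.213, whose median was 0.338. MIEN1 and GRB7, next to each other and close in mean level, had 0.231. ERBB2 and MIEN1 had 0.583, with a ratio from 4.16 in EGLN3 replicate 1 to 11.6 in EGLN3 replicate 3.

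**Figure D3:**
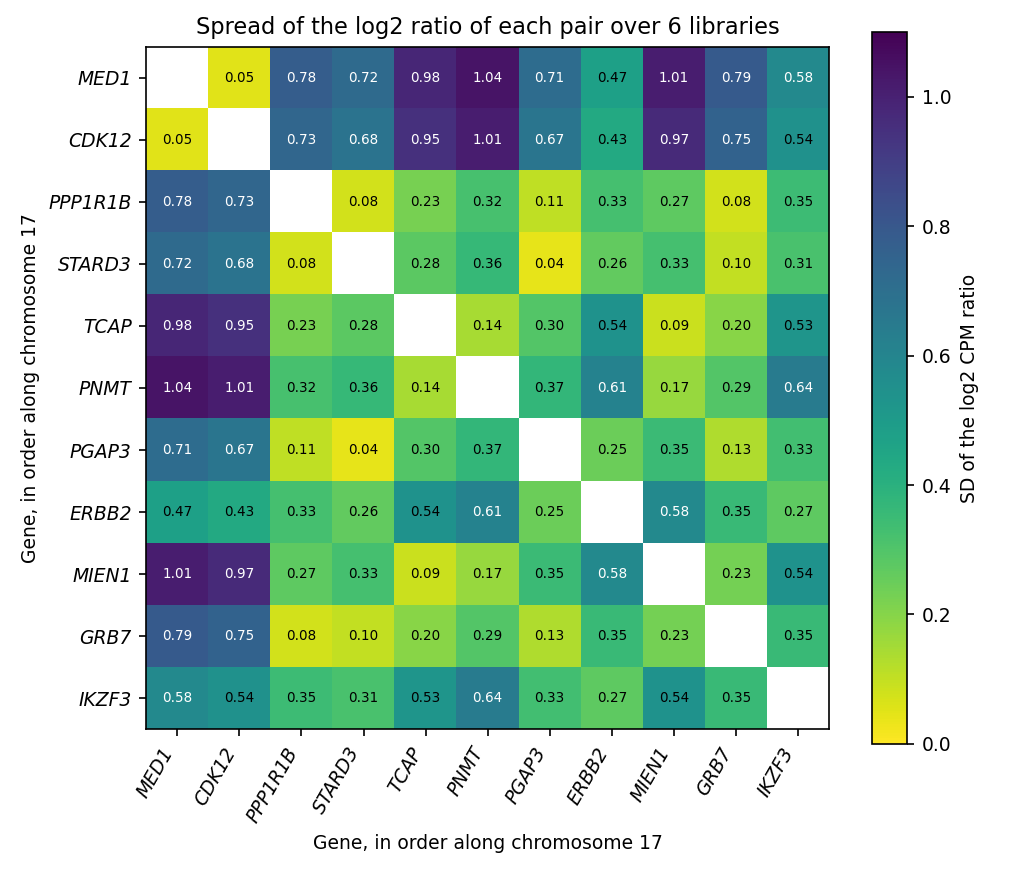
SD of the log2 CPM ratio over 6 libraries for every pair of the 10 neighbours and ERBB2, in chromosome order on both axes; yellow marks pairs that kept a steady ratio. The 21 pairs among the 7 genes from PPP1R1B to GRB7 had a median of 0.225, against 0.782 for the 14 pairs of these genes with MED1 or CDK12.

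Length and base composition moved with this pattern. MED1 and CDK12 have 7330 and 12773 exonic bases and transcripts of 46.1% and 44.2% GC, while the 7 genes from PPP1R1B to GRB7 have 1457 to 5160 bases and 54.8% to 67.7% GC. Over all tested genes, the 4965 that were highest in EGLN3 replicate 1 had a median of 3005 bases and 52.3% GC, and the 4208 highest in EGLN3 replicate 3 had 6466 bases and 42.3% GC. With smooth trends on GC content and length removed from each library, an alternative added after the data had been seen, MED1 still lay at -0.36 in EGLN3 replicate 1 and 0.41 in replicate 3, and MIEN1 at 0.60 and -0.37. CDK12 shrank more, from -0.54 and 0.55 to -0.17 and 0.21, and was then lowest in control replicate 3. The neighbours highest in EGLN3 replicate 1 and lowest in EGLN3 replicate 3 fell in number from 6 to 4 (15.7% of tested genes), and those with the reverse pattern from 2 to 1 (9.94%). The median SD of the 14 pairs across the split then was 0.439 and that of the 21 pairs within the 7 genes 0.17, against 0.292 for neighbouring pairs. The steadiness of single pairs changed: MED1 and CDK12 went to 0.172 and STARD3 and PGAP3 to 0.126, while PGAP3 and ERBB2, whose promoter windows are printed above, went from 0.249 to 0.057. PGAP3 itself then had an SD of 0.054. What remains of the opposition after these trends was not tested further.

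Between the EGLN3 and control groups no neighbour passed the test. The quasi-likelihood test of edgeR with Benjamini-Hochberg adjustment called 0 of 10 neighbours, with 0 at an unadjusted p under 0.05, and DESeq2 called 0 as well. Over all tested genes 0.00636% were called, which is EGLN3 alone (log2 fold change 11.0, SE 0.715, adjusted p = 0.031). The groups overlapped for all 10 neighbours and for ERBB2, where 6.26% of tested genes had groups that did not overlap. The log2 fold changes, EGLN3 minus control, were above 0 for 4 neighbours and below 0 for 6, with a median of -0.10 against 0.01 for all tested genes. They ran from -0.23 for PGAP3 (SE 0.169, 95% interval -0.63 to 0.18) to 0.24 for IKZF3 (SE 0.208, -0.26 to 0.74).

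The intervals were wide beside the fold changes. For MED1 the log2 fold change was 0.21 (SE 0.369) with a 95% interval of -0.67 to 1.097, and for MIEN1 0.03 (SE 0.387) with -0.90 to 0.95. For CDK12 it was 0.19 (SE 0.346, -0.64 to 1.01), for GRB7 -0.07 (SE 0.236, -0.64 to 0.49) and for STARD3 -0.16 (SE 0.185, -0.60 to 0.28). ERBB2 had the narrowest interval, -0.50 to 0.22 around -0.14. PPP1R1B (-0.14), TCAP (-0.12) and PNMT (-0.21) had intervals that reached from -0.66, -0.97 and -1.30 to 0.38, 0.73 and 0.88.

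**Figure D4:**
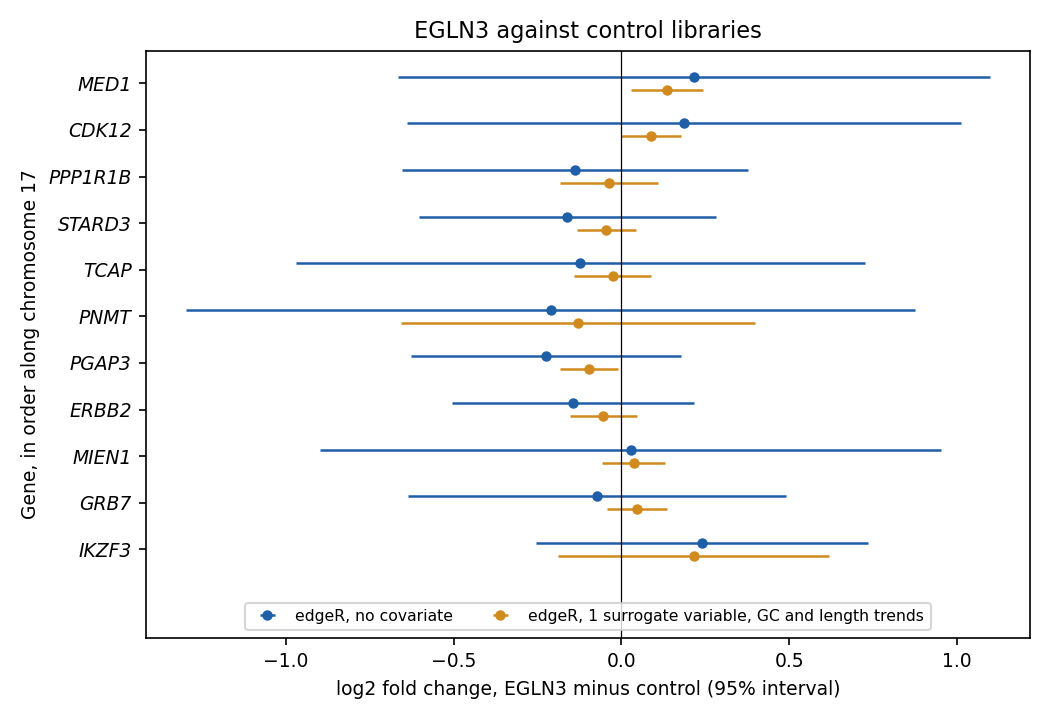
log2 fold change, EGLN3 minus control, with 95% intervals for the 10 neighbours and ERBB2, from edgeR without a covariate (blue) and with 1 surrogate variable and trends on GC content and length (orange). All blue intervals include 0, and with the surrogate variable those of MED1 (0.14) and PGAP3 (-0.10) do not, although neither passed the adjusted threshold.

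A surrogate variable, an axis estimated from the same libraries, narrowed these intervals. Because the axis came from the same data its SEs may be too small, and by how much was not tested. With it alone 4.53% of tested genes were called, and of the neighbours PGAP3 was called lower in the EGLN3 libraries (log2 fold change -0.20, SE 0.045, edgeR adjusted p = 0.0108). STARD3 (-0.13, adjusted p = 0.0907) and ERBB2 (-0.16, adjusted p = 0.074) were not. With trends on GC content and length taken out as well, 0.967% of tested genes were called and 0 of 10 neighbours. PGAP3 then had -0.10 (SE 0.042, edgeR adjusted p = 0.315) and MED1 0.14 (SE 0.052, adjusted p = 0.228). The call of PGAP3 thus rested on the fit without these trends.

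EGLN3 replicate 1 carried much of the spread. Without that library, 3 of the 10 neighbours had an unadjusted p under 0.05, where 1409 of all 16129 genes in that fit did, against 174 of 15726 with all libraries. The smallest edgeR adjusted p among the neighbours was 0.48, and the median log2 fold change was -0.33, with PNMT at -0.82 and MED1 at 0.49 as the extremes. Without EGLN3 replicate 3, whose label gives the longer plasmid time, the fold changes ran from -0.13 to 0.27 and the median was 0.02. MED1, CDK12, TCAP, PNMT, MIEN1 and GRB7 each changed sign in at least 1 of the fits that left out a library.

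As a share of all gene counts the 10 neighbours were steady. They held 0.671%, 0.655% and 0.69% in the controls and 0.709%, 0.654% and 0.657% in the EGLN3 libraries. The means were 0.672% ± 0.0178 and 0.673% ± 0.0307 (SD, n = 3 each, two-sided exact permutation p = 0.9), where 3 against 3 libraries cannot go below 0.1. ERBB2 alone held 1.07%, 1.02% and 0.899% in the controls and 0.774%, 0.991% and 0.991% in the EGLN3 libraries (difference -0.077 percentage points, exact permutation p = 0.5). It exceeded the 10 together in every library by counts, but not per length: with counts divided by exonic length the 10 held 0.496% to 0.561% and ERBB2, with its 10321 exonic bases, 0.213% to 0.361%, and ERBB2 was the lower in every library. The steady sum came from opposed parts, since MED1 and CDK12 together ranged from 0.103% in EGLN3 replicate 1 to 0.258% in EGLN3 replicate 3, while the other 8 ranged from 0.606% to 0.399% in the same libraries. Counting error was small beside this, at most 0.0041 percentage points (to either side, 95% Wilson interval) for the 10 and 0.005 for ERBB2, and covers counting only.

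**Figure D5:**
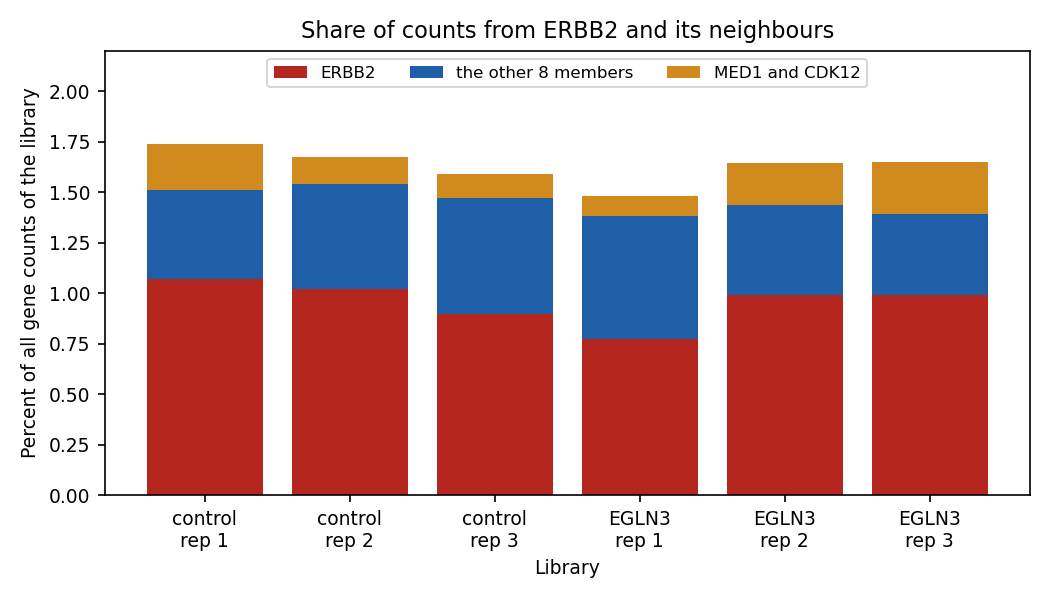
Percent of all gene counts of each library held by ERBB2, by MED1 and CDK12, and by the other 8 neighbours, stacked, for 3 control and 3 EGLN3 libraries. The total of the 10 neighbours stays between 0.654% and 0.709%, while MED1 with CDK12 and the other 8 change in opposite directions.

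The partners of these genes, taken from lists chosen with earlier results known, had no call in the test without a covariate. Each list is read against a median of 0.01 over all tested genes. Of 31 Mediator genes 20 had a log2 fold change above 0, with a median of 0.09, and MED28 (0.21, SE 0.115) and MED24 (-0.16, SE 0.113) had the smallest p. MED24 lies 331.2 kb from ERBB2 and is also among the other genes of the window, given below. Of 10 partners of CDK12 and related transcription kinases 6 were above 0, with a median of 0.07, led by LARP7 (0.18) and CDK9 (-0.25). Of 11 tested genes of DNA repair and replication known to depend on CDK12, 7 were above 0, with a median of 0.04. The smallest p belonged to the replication factor ORC3 (0.14) and to NBN (0.11). With the surrogate variable and both trends, the direction of the last 2 lists turned, to 3 of 10 above 0 (median -0.02) and 2 of 11 above 0 (median -0.05), while 23 of 31 Mediator genes were above 0 (median 0.05).

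Of 14 tested genes of ERBB2 signalling, adaptors like GRB7 together with other signalling proteins, 10 were above 0, with a median of 0.08. The kinase SRC (-0.24) and the adaptor GRB14 (0.27) had the smallest p. Of 20 genes of GPI anchor remodelling and attachment, the pathway of PGAP3, 10 were above 0, with a median of 0.01, led by TMEM8A (-0.23) and PIGK (0.19). Of 12 genes of sterol transfer at late endosomes, where STARD3 acts, 9 were above 0, with a median of 0.04. STARD5, a cytosolic relative of STARD3, had -1.05 (SE 0.384, edgeR adjusted p = 1), and STARD4 0.33. With the surrogate variable and both trends, 6 of the 14 ERBB2 signalling genes (median -0.01), 8 of the 20 GPI anchor genes (median -0.03) and 3 of the 12 sterol transfer genes (median -0.03) were above 0, so these medians turned sign. A last list held relatives of Aiolos, and catalytic subunits and inhibitors of protein phosphatase 1, which DARPP-32 inhibits. Of its 7 tested genes, 6 were above 0, with a median of 0.11, led by IKZF5 (0.26) and the phosphatase catalytic subunit PPP1CA (-0.31). With the surrogate variable and both trends 3 of these 7 were above 0, with a median of -0.00067.

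Among the other 42 protein-coding genes of the window 31 were tested and 9 were above 0, with a median of -0.04, and THRA (-0.34) and GSDMA (-0.26) had the smallest p. After adding the surrogate variable and both trends, 13 of the 31 were above 0 (median -0.02), and all tested genes had a median of -0.0039. There 4 genes of all these lists were called, each lower in the EGLN3 libraries. NPC2, the soluble cholesterol carrier of the late endosome lumen, had -0.28 (SE 0.048, edgeR adjusted p = 0.00197), and PPP1CA had -0.18 (SE 0.046, adjusted p = 0.0455). In the window TOP2A, a topoisomerase of dividing cells, had -0.20 (SE 0.045, edgeR adjusted p = 0.026) and IGFBP4, a secreted binding protein for insulin-like growth factors, -0.20 (SE 0.051, adjusted p = 0.0455). The counts of these calls should be read beside the 0.967% of all tested genes.

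The genes most like the mean movement of the neighbours lay mostly elsewhere. Likeness was the root mean square difference in log2 CPM over 6 libraries from the mean movement of the 10, among 12255 protein-coding genes with a mean of at least 1 CPM, where the median was 0.252. The 5 closest were PRSS8 on chromosome 16 (0.013), STRN4 on chromosome 19 (0.016), ZNF830 on chromosome 17 (0.017), ANXA11 on chromosome 10 (0.019) and CLPTM1 on chromosome 19 (0.022). Because MED1 and CDK12 oppose the others, this mean, between -0.195 and 0.217, has a smaller range than every single neighbour. PRSS8 lay between -0.20 and 0.24.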

How the data were processed

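RNA sequencing of 6 NCI-N87 libraries was analysed, 3 with the EGLN3 plasmid and 3 controls, grouped by the titles and genotype in the labels. The deposited gene counts are whole numbers without scaling. Each deposited FPKM value is a count over gene length and over 1 factor per library. That factor lay between 0.9207 and 1.074 times the library total, so the values the authors deposited carry a scaling between libraries. In the submitters' processing notes the build hg38 is listed with featureCounts 1.5.0-p3, HISAT2 2.0.5 and DESeq2 1.20.0, without their roles, and the annotation and strand setting are not stated in the sources at hand. All 58735 identifiers and coordinates equal those of GENCODE 29 on GRCh38. Promoters are those of RefSeq.

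The main test was the robust quasi-likelihood test in edgeR 4.0.16 (R 4.3.3) without covariates, after filterByExpr and TMM scaling, with Benjamini-Hochberg adjustment over 15726 genes and a threshold of 0.05. CPM are TMM-scaled, and log2 CPM carry a prior count of 2. The SE is the fold change divided by the root of F. Surrogate variables came from sva 3.50.0, and GC and length trends were splines with 5 degrees of freedom. 7 tested genes had no GC value, so that fit held 15719. Alternatives were DESeq2 1.42.0, RLE scaling, no filter or a minimum of 1 CPM in 3 libraries, a block on replicate number, limma 3.58.1 on log2(FPKM + 1) and log2(FPKM + 0.1) with at least 0.5 FPKM in 3 libraries or no filter, and leaving out each library. The edgeR fit was tested on simulated data drawn with the smaller spread of the fit with 1 surrogate variable. That test therefore does not speak for the wider spread of the main fit. Shares were compared by exact permutation in scipy 1.17.1.

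The neighbours, the gene lists and the markers were chosen with earlier results of these data known. Named genes were the 10 neighbours, ERBB2, 3 genes on each side of the ends of the high stretch, the 2 genes with the smallest p of each list and the 5 most alike. CACNB1, FBXL20, ORMDL3 and PSMD3, the genes called with the surrogate variable, and the noncoding genes were named after their values were seen. The values of 2 single marker genes are not reported here.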

Additional observations from a re-analysis of the deposited data

How the results depend on the processing

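The count of called genes, 1 in the fit without a covariate, was 0 with the replicate block, 0 with limma on log2(FPKM + 1) with or without a filter, 713 with 1 surrogate variable, 152 with the GC and length trends added, and 0 to 1 when a library was left out. Same-numbered libraries did not move together: their deviations correlated at -0.7929, -0.1757 and -0.674, and no library correlated best with its own number. The labels do not say whether replicate numbers pair libraries. With 70.03% of the variance on 1 axis, these correlations cannot decide it. The block changed no call of a neighbour and gave MIEN1 a log2 fold change of -0.072. MIEN1 was also below 0 with limma on FPKM, at -0.056 with either pseudocount and without a filter, and GRB7 was 0.047 with the surrogate variable and trends. When a library was left out, MIEN1 ran from -0.473 to 0.268, GRB7 from -0.304 to 0.065, MED1 from -0.047 to 0.565, CDK12 from -0.062 to 0.493, TCAP from -0.567 to 0.105 and PNMT from -0.817 to 0.061. ERBB2, PGAP3, STARD3, PPP1R1B and IKZF3 kept their sign under these alternatives. The difference in the count share of the neighbours, 0.00145 percentage points, was -0.0155 per length and ran from -0.0163 to 0.0111 without a library. With the top 1% in place of the top 5%, 3 neighbours counted as high, and the end of the stretch before ERBB2 moved from -50.85 to -16.79 kb (1 low gene, or top 5%) or -514.5 kb (3 low genes). The cause of these shifts was not tested. Depth limits IKZF3 and PNMT, with 18 to 72 counts a library.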

Other observations

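From MED1 to IKZF3 the tables hold 7 rows of other biotypes, of which 3 (RNU6-233P, KRT8P34 and AC090844.1) were listed at 0 in all libraries. AC005288.1, an antisense RNA on the plus strand (chr17:39401793-39406233) that spans the 3' end of MED1, stood at 130.0, 133 and 127 FPKM in the controls and at 93.7, 170.0 and 172 FPKM in the EGLN3 libraries. It was lowest where MED1 was lowest, in EGLN3 replicate 1. In control replicates 1 to 3 it changed little, while MED1 stood at 124, 72.3 and 65.0 FPKM. AC005288.1 shares no exonic base with MED1. The groups overlapped, with a log2 fold change of 0.16 (SE 0.244, edgeR adjusted p = 1).

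AC009283.1, a long intergenic RNA beside CDK12 (chr17:39566915-39567559), stood at 23.1, 33.7 and 45.2 FPKM in the controls and at 51.6, 28.4 and 20.7 FPKM in the EGLN3 libraries. Its libraries were ordered as those of GRB7 and MIEN1, and opposite to its neighbour CDK12. AC087491.1, between CDK12 and PPP1R1B, had 13 to 35 counts. The row of the microRNA MIR4728, 67 bases inside the span of ERBB2, had 42, 44 and 57 counts in the controls and 44, 67 and 36 in the EGLN3 libraries. Libraries of this kind do not measure the mature microRNA, and reads of ERBB2 in those bases cannot be told apart from it.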
